A study of Mus musculus with 16 samples.

Results

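The cytosolic ribosome is built on ribosomal RNA from a large and a small set of proteins, and the genes of these proteins were followed here in mouse neutrophils. Genes were taken by name: every listed gene whose symbol starts with Rpl or Rps and a number, the stalk genes Rplp0, Rplp1 and Rplp2, and Rpsa, without pseudogene names and without the S6 kinase genes. This gave 83 of the 10296 genes listed. The names brought in Rpl7l1 and Rps19bp1, which encode a biogenesis factor and a binding partner rather than structural proteins, and left out others such as Fau and Gnb2l1, whose products also belong to the ribosome. The libraries were made from Ly6G+ neutrophils that were sorted with antibodies to CD45, CD11b and Ly6G from blood, spleen or lung of C57BL/6 mice. The mice were germ-free (GF, kept without microorganisms) or SPF (specific pathogen free, carrying a microbiota), with no other treatment or allele named and no age given. The 6 groups were GF blood (2 libraries), SPF blood (2), GF spleen (3), SPF spleen (3), GF lung (3) and SPF lung (3). Whether each library stands for its own mouse is not stated in the labels. The error behind each p-value is therefore that among these 16 libraries and could be technical.

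Most ribosomal proteins are needed in equal numbers, and their genes are usually transcribed at a high and shared level. Many of their messenger RNAs start with a C followed by a run of pyrimidines, the 5′ terminal oligopyrimidine (TOP) tract, through which the kinase complex mTORC1 and the protein LARP1 set how strongly they are translated and how long they last. Mature neutrophils leave the bone marrow after ribosome production has been turned down, and are known for a low RNA content. Bulk libraries cannot tell apart fewer cells with a transcript and less of it per cell.

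Depth was uneven, from 104213 to 3033941 reads recovered per library, and both SPF blood libraries were the deepest (2870559 and 3033941). GF blood replicate 2 had 2555255 reads and GF blood replicate 3 only 132798. In the shallow libraries up to 27 of the 83 genes had 0 reads, and in SPF blood none had. Neutrophil markers (Ly6g, S100a8, S100a9 and others, 10 genes) summed to between 30760 and 92070 normalised counts in every library, and all 10 had reads in every group. Erythroid markers, mostly haemoglobin genes, summed to 81850 and 99500 in GF blood, to 44150 and 70510 in SPF blood and to between 42.05 and 22120 elsewhere. Platelet markers summed to 644.5 and 853.9 in GF blood, 407.7 and 537.5 in SPF blood and at most 59.16 elsewhere, and lung structural markers to between 3003 and 11740 in lung and at most 51.85 elsewhere. A normalised count is the deposited value less the 0.5 reads that had been added to every gene.

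The annotated starts of the genes were read for the TOP tract, because it is the sequence feature that links these messenger RNAs. RefSeq promoter windows (GRCm38.p6) matched 63 of the 83 genes. A C at the annotated first base followed by at least 4 C or T stood in 14 of them (22.2%), against 3.01% of all 27025 genes with such a window and 2.79% of the 7647 other genes in the expression table. Allowing the C to lie within 3 bases of the annotated start raised the share to 41.3%, against 13.5% and 15.2%. The lines below give windows of 30 bases, with the annotated first base at the 16th letter and the tract in capitals, for 4 genes with a higher level in SPF blood (Rps10, Rpl18, Rps27 and Rps9), for Rps6, which had a tract and did not pass the test, and for Rpl13 (higher in SPF blood) and Rpl4 (not past the threshold), in which no tract starts within 3 bases of the annotated start.
Rps10, chr17:27635230-27635259, minus strand: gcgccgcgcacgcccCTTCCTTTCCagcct
Rpl18, chr7:45718056-45718085, plus strand: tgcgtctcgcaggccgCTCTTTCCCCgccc
Rps27, chr3:90213634-90213663, minus strand: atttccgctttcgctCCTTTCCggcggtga
Rps9, chr7:3704026-3704055, plus strand: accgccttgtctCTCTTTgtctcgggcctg
Rps6, chr4:86857353-86857382, minus strand: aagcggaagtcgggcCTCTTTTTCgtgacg
Rpl13, chr8:123102335-123102364, plus strand: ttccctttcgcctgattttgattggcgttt
Rpl4, chr9:64173372-64173401, plus strand: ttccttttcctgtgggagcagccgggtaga
The capitals mark the match nearest the annotated first base, and the search did not look at the bases before its C. They start at the annotated first base in Rps10, Rps27 and Rps6, 1 base after it in Rpl18 and 3 bases before it in Rps9. Further pyrimidines stand directly before the capitals in Rps10, Rps27, Rps6 and Rps9, so the whole run starts earlier there. Rpl13 and Rpl4 are given by the start of the run instead. They hold a C-led run of 7 and 9 pyrimidines that starts 13 bases before the annotated first base, outside the distance searched. A run of this kind anywhere in the 30 bases was present in 65.1% of the 63 genes, against 40.3% of all genes with a window and 43.5% of the other genes in the table, a search added after these windows had been seen. A tract is a match of letters near an annotated start, which may differ from the start used in these cells. The windows printed are examples. Rplp0, Rps3 and Rps3a1 were also higher in SPF blood, and no tract starts within 3 bases of their annotated starts. Whether a tract goes with a higher level in SPF blood was not tested. In the 250 bases upstream, on either strand, CCGGAAG (the core that ETS factors bind) occurred in 28.6% of the 63 genes, against 7.83% of all genes with a window and 17.2% of the other genes in the table. The shares for GGGCGG (the Sp1 box) were 50.8%, 35.4% and 64.1%, for AAGATGGC (a YY1 site) 4.76%, 1.83% and 2.68%, for TATAAA (the TATA box) 6.35%, 14.3% and 7.68%, and for CACGTG (the E-box) 7.94%, 6.86% and 10.3%.

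Ribosomal protein genes took a small part of every library. Their summed level was between 0.216% and 0.467% of all normalised counts. The share was 0.467% and 0.466% in the SPF blood libraries and 0.324% and 0.241% in GF blood. It was 0.216%, 0.384% and 0.406% in SPF spleen, 0.378%, 0.295% and 0.224% in GF spleen, 0.413%, 0.296% and 0.378% in SPF lung, and 0.344%, 0.346% and 0.358% in GF lung. Both SPF blood libraries therefore stood above all 14 others, and GF blood lay wholly below GF lung. The deepest libraries were also the highest, with GF blood replicate 2 at 2555255 reads and 0.324%, and the part of depth in these shares was not tested. With erythroid, platelet and mitochondrial genes left out of the total, the shares were 0.485% and 0.497% in SPF blood, 0.349% and 0.269% in GF blood and 0.216% to 0.415% in the other libraries.

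**Figure D1:**
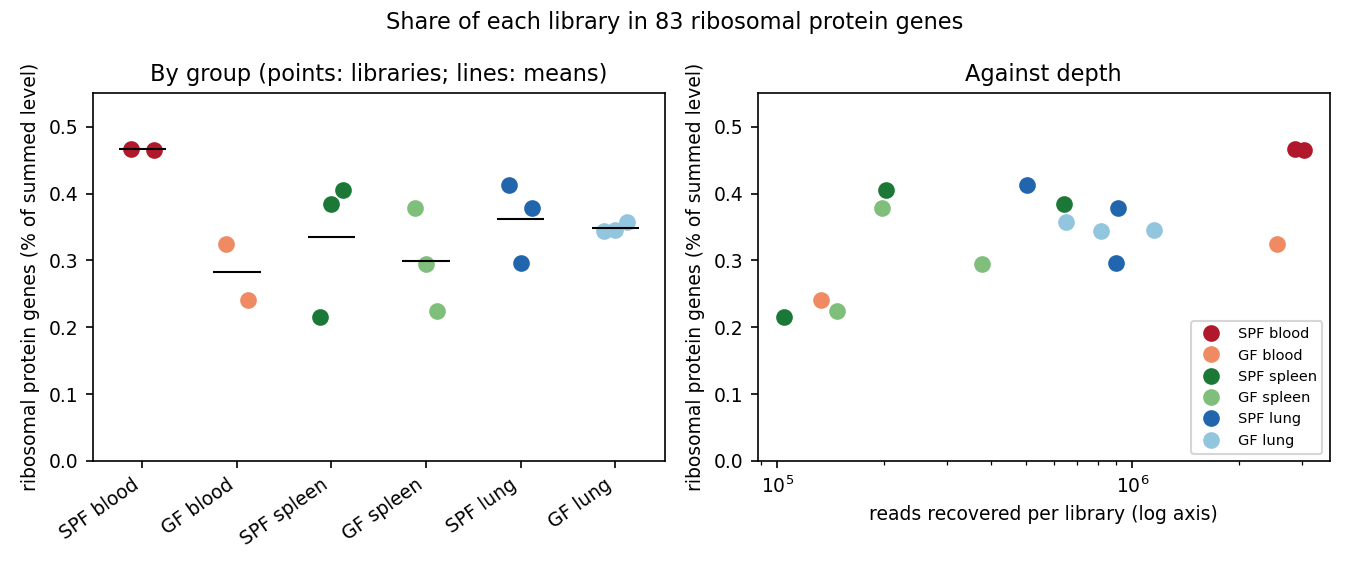
Summed level of the 83 ribosomal protein genes as a percent of each library's summed normalised counts, by group (left; points are libraries, lines are group means) and against the reads recovered per library (right; log axis). The SPF blood libraries lie at 0.467% and 0.466%, above the other 14, and GF blood replicate 2 lies at 0.324% with 2555255 reads.

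Per kilobase of transcript, the 80 ribosomal protein genes that passed the filter on low values (at least 10 in at least 2 libraries) had a median level of 41.33 normalised counts, against 8.51 for the other genes tested, and 81.5% of those lay below the ribosomal median. The level per kilobase ran from 2.15 to 573.3 among them, so the genes were far from equal in these files. The lowest was Rps20, whose level was divided by a transcript of 3706 bases. Next among the genes tested came the paralog Rpl3l at 2.18 and then Rps24 at 7.06. Rps9, a small subunit protein, was highest at 573.3, and Rps27 at 202, Rpl41 at 201.5 and the stalk base Rplp0 at 166.6 were among the next. Ribosomal protein genes have many processed pseudogenes, and the counting could share reads among such near-identical copies. The median gene had 43.1% of its 61-base stretches (the read length) found nowhere else in the annotated transcripts, 48 of the 83 were under 50%, and 3 were unique throughout. Levels of single genes with few unique stretches, such as Rps27 (1.4%), Rps27rt (9.2%), Rps10 (9.6%), Rps6 (15.6%) and Rpl13 (20%), are therefore uncertain. Rps3 (98.8%), Rpl4 (87.8%), Rps9 (69.6%) and Rplp0 (64.9%) rest on more unique sequence. Across the 80 genes, level per kilobase and unique share had a Spearman rho of -0.06, given as a description over genes of the same libraries.

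The first comparison set SPF blood against the mean of the other 5 groups. Of the 80 ribosomal protein genes tested, 76 had a positive difference, 11 were higher past the threshold of an adjusted p of 0.05 and 0 were lower. The background of such calls over all 8299 genes tested was 6.62% higher and 11.7% lower (limma, Benjamini-Hochberg). An unadjusted limma p under 0.05, in either direction, was found in 25 of the 80 and in 2641 of the 8299, a similar share. The median difference was 0.83 on the log2(value + 1) scale for the ribosomal protein genes and -0.09 for all genes. Every SPF blood library was above every other library in 25 of the 80 (31.2%), against 8.53% of all genes, and the reverse was seen in 0, against 3.06%. SPF blood had the highest mean of the 6 groups in 56 of the 80 (70%), against 25.3% of all genes. GF spleen (29), GF blood (23) and SPF spleen (20) most often had the lowest mean. The same count was not made over all genes, and all 5 libraries under 250000 reads belong to these groups. The 11 genes included the large subunit genes Rpl13 and Rpl18, the stalk gene Rplp0, and the small subunit genes Rps3, Rps3a1, Rps9, Rps10, Rps27 and Rps27a. By role, 3 of 41 large subunit genes, 7 of 31 small subunit genes, 1 of 3 stalk genes and 0 of 4 paralogs passed, and the medians of the large and small subunit genes were 0.88 and 0.81.

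The number that passed depended on each SPF blood library. Without either one, a single gene (Rps9) remained higher and the median stayed between 0.72 and 0.93 over all libraries left out in turn. After thinning every library to the depth of the shallowest, 6 genes passed, 4 of them among the 11, and the median was 0.80. That fit tested all 83 ribosomal protein genes and 9873 genes in total. Of these 9873 genes, 282 were higher and 229 lower, with a median of 0.06. With voom weights, which give deep libraries more weight, 51 passed, against 1500 higher and 1782 lower over all genes tested. Markers of other cells moved in the same comparison. Of the lung structural markers tested 9 of 10 were lower (median -3.08), and of the T and NK cell markers 1 of 3. Of the B cell markers tested 8 of 12 were lower and 0 higher (median -1.89), among them Cd74, at a mean of 53.71 in SPF blood and 251.9 elsewhere. Summed, the B cell markers were at 708.7 and 742.5 in SPF blood and at 518.2 and 681.5 in GF blood. Their sums ran from 674.6 to 1001 in spleen and from 1027 to 1449 in lung. Of the macrophage and monocyte markers 5 of 8 were lower, including C1qa, C1qb and C1qc with 0 reads in SPF blood, and 2 were higher, Cd68 and Ly6c2 (median -1.52). Of the platelet markers 6 of 8 and of the erythroid markers 2 of 8 were higher (medians 2.20 and 5.21), and of the 11 rows of neutrophil markers 2 were higher and 4 lower (median 0.80). Their part in the result was not tested.

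**Figure D2:**
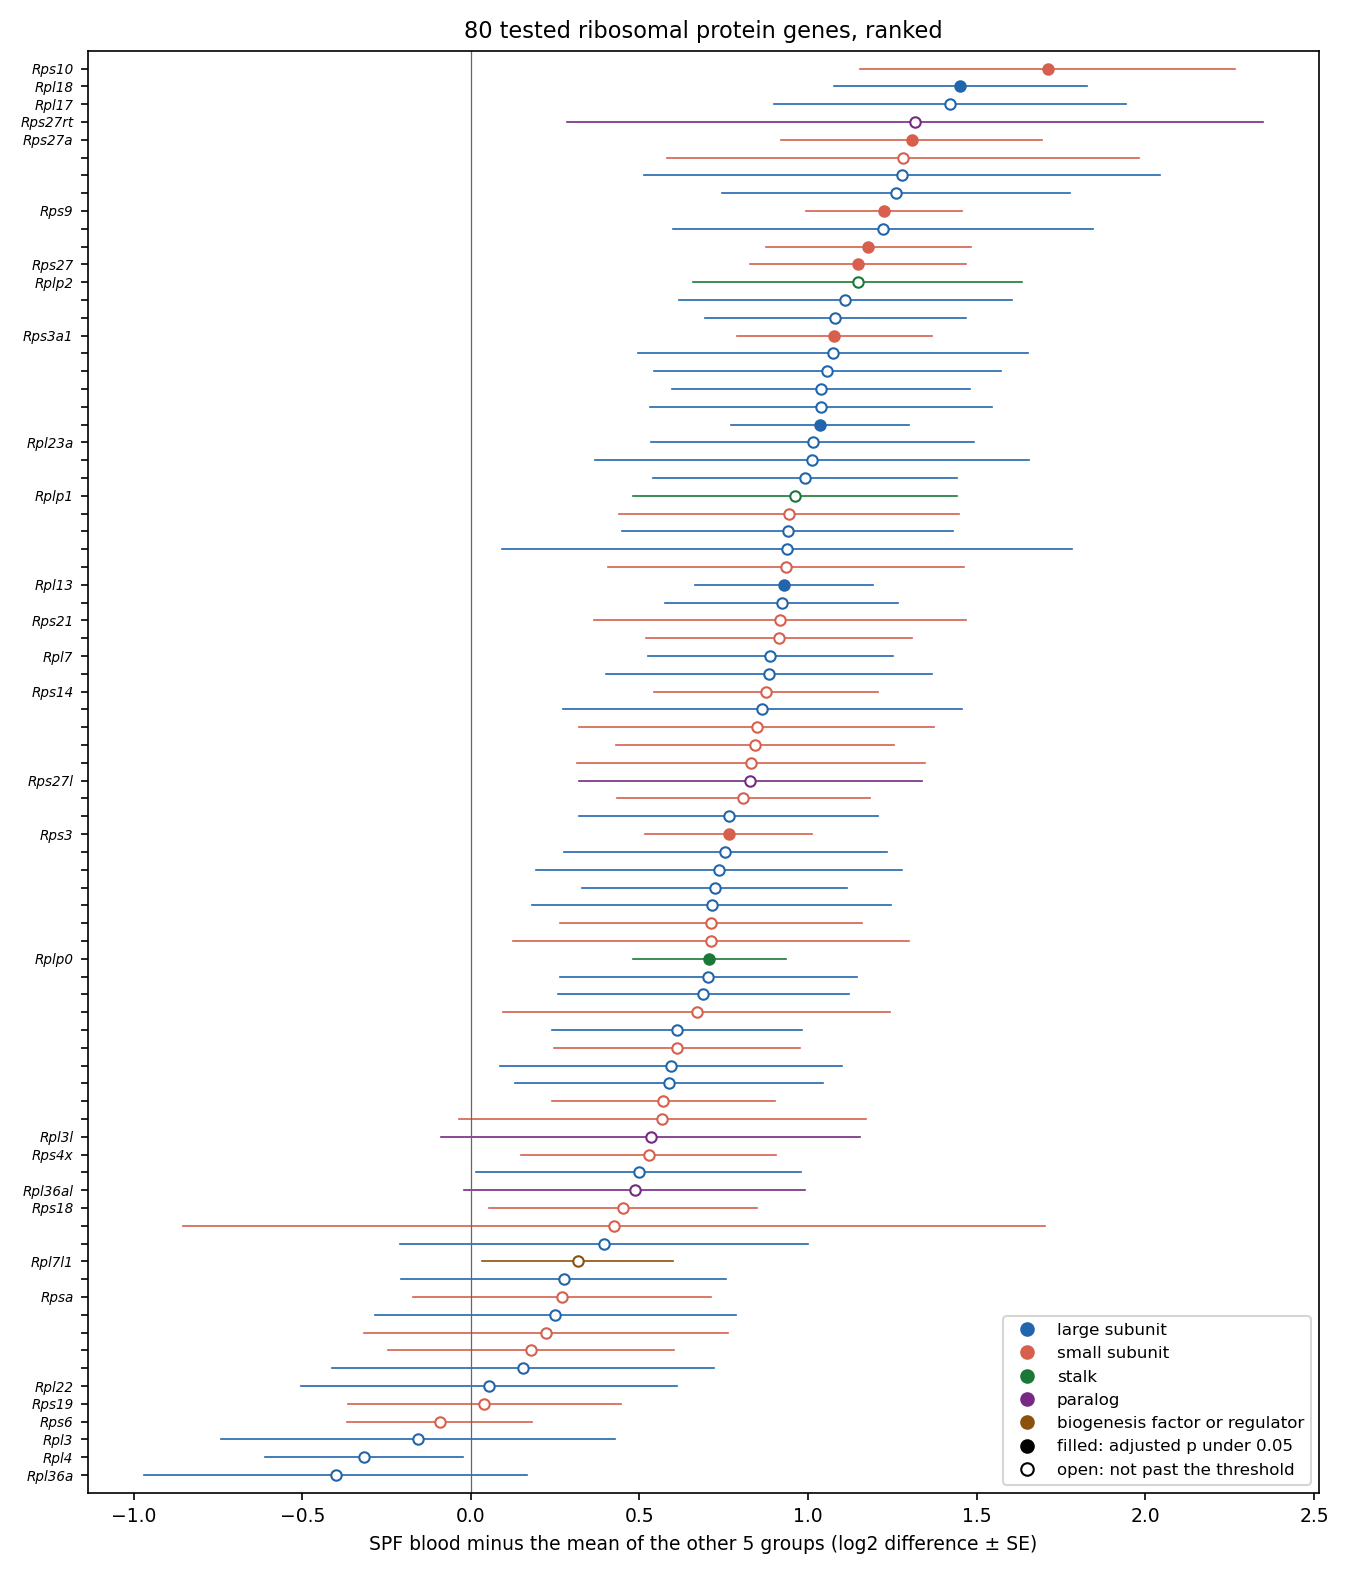
Log2 difference of SPF blood minus the mean of the other 5 groups (point) with its standard error (line) for the 80 ribosomal protein genes tested, coloured by role and filled where the adjusted p was under 0.05. Most genes named in the text are labelled. The points run from 1.71 (Rps10) to -0.40 (Rpl36a), and 4 lie below 0.

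Among the small subunit genes, Rps9 had the smallest adjusted p. Its level was 796.28 and 818.71 normalised counts in SPF blood and 563.02 and 318.54 in GF blood. It was 213.42, 366.39 and 413.81 in SPF spleen, 466.62, 348.08 and 288.31 in GF spleen, 425.68, 285.5 and 370.65 in SPF lung, and 290.96, 283.35 and 252.26 in GF lung. Both SPF blood libraries were above the other 14, and GF blood lay wholly above GF lung. The log2 difference was 1.23 (SE 0.23, limma adjusted p = 0.000431), and it passed in all 29 alternatives run, with an adjusted p of at most 0.033.

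Rps10, which lies on the head of the small subunit, had the largest difference. It measured 76.78 and 55.28 in SPF blood, 34.61 and 0 in GF blood, and 4.7 to 32.77 in the 12 spleen and lung libraries. The difference was 1.71 (SE 0.56, adjusted p = 0.0325), and few of its stretches are unique. Rps27a, made as a fusion with ubiquitin, measured 176.6 and 168.18 in SPF blood, 100.08 and 59.26 in GF blood, and 22.87 to 117.56 in spleen and lung (1.31, SE 0.39, adjusted p = 0.0198). Both genes were higher in each SPF blood library than in any other. Rps27 measured 137.26 and 116.29 in SPF blood, 91.4 and 59.26 in GF blood and 26.69 to 96.81 in the rest (1.15, SE 0.32, adjusted p = 0.012).

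Rps3a1 and Rps3, further small subunit proteins, had differences of 1.08 and 0.76 (adjusted p = 0.0095 and 0.0299). Rps3, whose sequence is nearly all unique, measured 177.95 and 166.22 in SPF blood, 97.87 and 88.89 in GF blood, and 68.6 to 136.37 elsewhere. Its groups did not overlap with SPF blood either.

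In the large subunit, Rpl18 was at 135.95 and 147.8 in SPF blood, 70.15 and 22.22 in GF blood, and 18.02 to 91.29 in spleen and lung (1.45, SE 0.38, adjusted p = 0.00747). Rpl13 was at 166.66 and 147.4 in SPF blood and at 83.71 and 37.04 in GF blood, with 53.36 to 114.53 elsewhere (0.93, SE 0.26, adjusted p = 0.0136). In both genes SPF blood stood clear of every other library. Rpl17, at the exit of the peptide tunnel, had the third largest difference but did not pass (1.42, SE 0.52, adjusted p = 0.0601), with 79.94 and 71.35 in SPF blood and 0 to 46.85 elsewhere.

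The stalk recruits elongation factors to the ribosome. Its base Rplp0 measured 361.77 and 303.83 in SPF blood and 279.65 and 155.34 in GF blood. It measured 144.82, 184.68 and 211.42 in SPF spleen, 223.16, 239.46 and 180.19 in GF spleen, 189.19, 181.79 and 264.45 in SPF lung, and 204.04, 225.66 and 172.52 in GF lung. The lower SPF blood library was only slightly above the higher GF blood library (0.71, SE 0.23, adjusted p = 0.0273). The stalk tips Rplp1 and Rplp2 had differences of 0.96 and 1.15 that did not pass (adjusted p = 0.166 and 0.101). Rplp2 was at 44.71 and 40.59 in SPF blood against 4.7 to 37.44 in the other libraries, and Rplp1 at 43.36 and 26.89 against 0 to 28.98. Rpsa, a small subunit protein also known as a laminin receptor, was at 34.78 and 43.12 in SPF blood and reached 76.08 in a GF spleen library and 62.47 in an SPF lung library (0.27, adjusted p = 0.718).

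Only 4 of the 80 had a negative difference, and none passed. Rps6, the small subunit protein phosphorylated by S6 kinases, measured 77.68 and 61.94 in SPF blood, 81.84 and 44.45 in GF blood, 53.36 to 69.12 in spleen and 65.03 to 112.45 in lung (-0.09, adjusted p = 0.855). Rpl4 measured 44.26 and 54.1 in SPF blood, 45.83 and 44.45 in GF blood, 30.43 to 66.65 in spleen and 72.92 to 103.08 in lung (-0.32, adjusted p = 0.486). Every lung library was above every blood and spleen library in this gene. Rpl3 was at 36.12 to 66.63 in lung and at 0 to 42.32 in blood and spleen, which overlap, with 28.91 and 18.03 in SPF blood (-0.16, adjusted p = 0.886), and Rpl36a stayed at 0 to 15.22 in all libraries (-0.40, adjusted p = 0.669). Rps19, next in order, had a difference of 0.04 and was at 28.41 and 36.46 in SPF blood and 30.3 to 67.25 in lung.

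**Figure D3:**
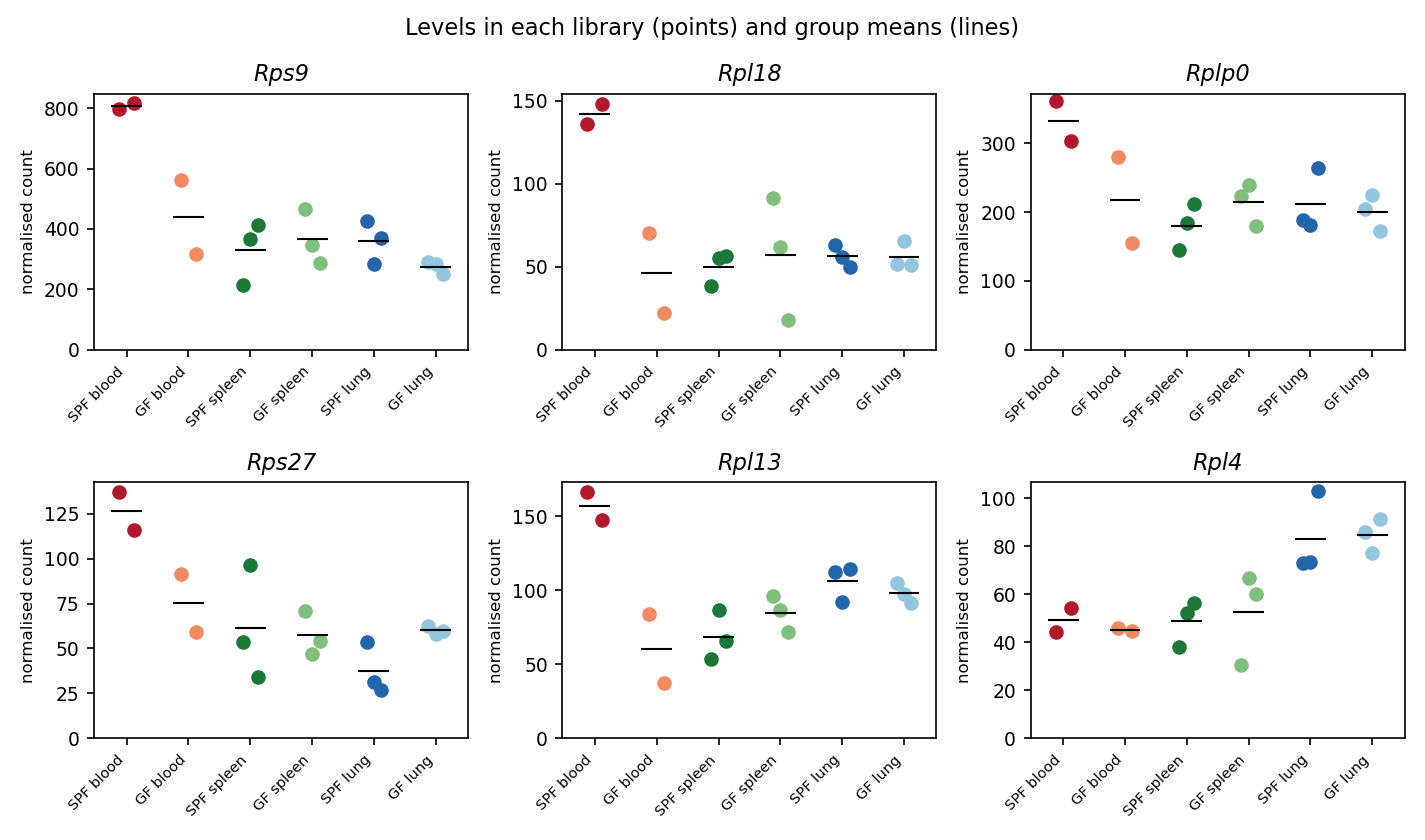
Normalised counts of 6 ribosomal protein genes in each library (points) with group means (lines). In Rps9, Rpl18, Rplp0, Rps27 and Rpl13 both SPF blood libraries are the highest, whereas in Rpl4 the 6 lung libraries (72.92 to 103.08) lie above all others.

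Paralogs stand in for a partner in some tissues and were mostly scarce here. Rpl3l, the muscle form of Rpl3, had reads in 9 libraries and stayed at or under 9.4 normalised counts. Rpl22l1 was at 5.42 and 2.74 in SPF blood, 3.94 to 9.66 in lung and 0 to 1.49 in GF blood and spleen, beside 11.74 and 3.92 for its partner Rpl22 in SPF blood. It did not pass the filter, nor did Rpl12 and Rps19bp1. Rpl36al was at 16.26 and 11.76 in SPF blood and 0 to 18.85 elsewhere (0.49, adjusted p = 0.541). Rps27l, a p53-induced copy of Rps27, was at 36.13 and 27.05 in SPF blood and 0 to 33.5 elsewhere (0.83, adjusted p = 0.269). The intronless copy Rps27rt had 0 reads in 8 libraries and reached 52.89 in an SPF lung library. Its difference of 1.32 had an SE of 1.03 (adjusted p = 0.414), and it shares most of its sequence with Rps27. Rpl7l1, at 86.74 and 81.14 in SPF blood, 88.85 and 51.85 in GF blood and 45.73 to 96.28 elsewhere, had a difference of 0.32 (adjusted p = 0.47), beside 0.89 for Rpl7 (adjusted p = 0.0888). The gap between these genes was not tested.

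SPF blood was then compared with each related group. These comparisons share the SPF blood libraries, so their values stand side by side and do not support each other. Against GF blood, the comparison of microbial status within blood, 77 of 80 differences were positive with a median of 0.85 (all genes -0.02). Only Rpl13 passed (1.41, SE 0.35, adjusted p = 0.0377), with a background of 0.53% higher and 0.795% lower. An unadjusted limma p under 0.05 was found in 16 of the 80 and in 1367 of all 8299 genes. Both SPF blood libraries exceeded both GF blood libraries in 64 of the 80 (80%), against 30.5% of all genes. The call of Rpl13 was lost in 6 of the 16 fits with a library left out, and 0 genes passed in each of the 6. They were the fits without GF blood replicate 3 (0.90, adjusted p = 0.583), without SPF blood replicate 3 or 4 (1.32 and 1.495, adjusted p = 0.377 and 0.134), and without any 1 of the GF lung libraries, which leave the difference at 1.41 (adjusted p = 0.0524 to 0.0561). Without GF blood replicate 2, 7 genes passed, and without SPF spleen replicate 1, 4.

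Since GF blood replicate 3 held only 320 reads of ribosomal protein genes, the 3 deep blood libraries were also set side by side, without a test. Both SPF blood libraries were above GF blood replicate 2 in 68 of the 80 genes (85%), against 37.7% of all genes tested, and the median ratio of the SPF blood mean to this library was 1.54 over the 79 genes with reads in it, against 1.03 for all genes. The 4 genes below it in both were Rps6, Rps25, Rpl7l1 and Rpl3l, named after their values were seen. Erythroid and platelet markers moved the other way, with larger sums in GF than in SPF blood. The summed neutrophil markers were at 77140 and 92070 in SPF blood and at 51600 and 67740 in GF blood, mostly from S100a8 (means of 23510 and 13600) and S100a9 (32920 and 18120). Of the 11 rows of this list, 6 had a positive difference, 0 were higher and 1 was lower past the threshold, Itgam (-1.26, adjusted p = 0.0121). Their part in the result was not tested.

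**Figure D4:**
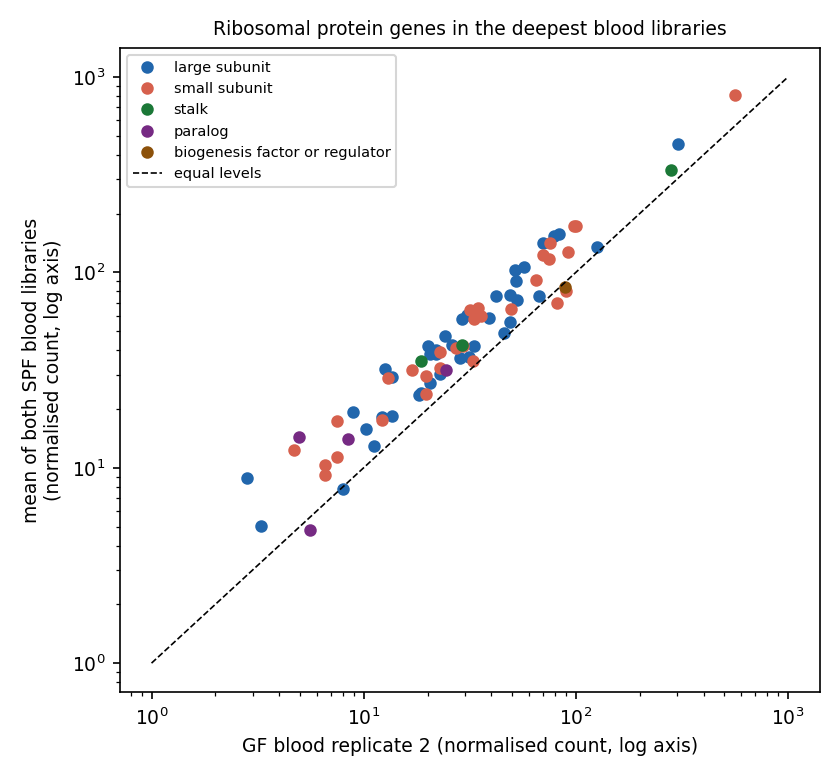
Level of each ribosomal protein gene with reads in GF blood replicate 2 (horizontal axis) against its mean in both SPF blood libraries (vertical axis), in normalised counts on log axes, coloured by role. Most points lie above the dashed line of equal levels, and the median ratio is 1.54.

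Against SPF spleen, 8 of 80 genes were higher and 0 lower, with a background of 4.01% and 3.05% and medians of 0.95 and -0.09. Among them were Rps9 (1.33, adjusted p = 0.00333), Rpl13 (1.16, adjusted p = 0.0242), and Rpl23a (1.95, adjusted p = 0.0393). Rpl23a, which lies at the exit of the peptide tunnel, was at 68.2 and 56.84 in SPF blood and 0, 40.21 and 18.81 in SPF spleen. Rps14, Rplp0 and Rpl18 passed narrowly (adjusted p = 0.0467, 0.0467 and 0.049). Every SPF blood library was above every SPF spleen library in 49 of 80 (61.3%, against 23.7% of all genes). SPF spleen replicate 1 was the shallowest library, with 104213 reads, and without it only 1 gene passed. Without the 5 libraries under 250000 reads, which leaves 1 SPF spleen library, fewer of these genes and fewer of all genes passed. The median was then 0.49, against -0.06 for all genes.

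Against SPF lung, 5 of 80 were higher and 0 lower, a share near the background of 6.63% higher (12.5% lower). They included Rps27 (1.77, adjusted p = 0.00121), Rps9 (1.18, adjusted p = 0.00254), Rps21 (2.05, adjusted p = 0.0284) and Rpl18 (1.31, adjusted p = 0.0411). Rps21, a small subunit protein of low level, was at 9.03 and 9.41 in SPF blood and 1.97, 0 and 1.04 in SPF lung. The median was 0.60 (all genes -0.15), and 65 of 80 were positive. Every SPF blood library was above every SPF lung library in 41 of 80 (51.2%, against 23.9% of all genes) and below in 3 (29.6% of all genes). The lung libraries carried RNA of lung structural cells, and its part was not tested.

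Between groups other than SPF blood few ribosomal protein genes differed. GF blood against GF spleen gave 0 of 80 in either direction with a median of 0.22 (background 0.41% higher and 0.47% lower), and against GF lung also 0, with a median of -0.19 (1.96% and 7.83%). SPF against GF gave 0 in spleen (median 0.12, background 0.0723% and 0.253%) and 0 in lung (median 0.04, background 0.012% and 0.012%). At an unadjusted limma p under 0.05 there were 5, 11, 6 and 4 of the 80 in these 4 comparisons, against 1001, 1817, 1032 and 332 of all 8299 genes. With voom weights GF blood against GF lung gave 2 higher and 6 lower, and the other 3 gave 0. Lung against spleen gave 1 gene higher in GF mice, Rps18 (1.64, SE 0.43, adjusted p = 0.0104, median of 0.44 over the 80 genes, background 8.03% higher and 2.14% lower), and 1 in SPF mice, Rps4x, the X-linked small subunit gene (1.70, SE 0.41, adjusted p = 0.00464, median 0.27, background 7.68% higher and 1.99% lower). Rps18 was at 31.39, 46.02 and 43.49 in GF lung and 10.14, 14.81 and 6.01 in GF spleen. Rps4x was at 49.27, 38.46 and 42.69 in SPF lung and 7.62, 14.89 and 9.4 in SPF spleen. In both genes the groups did not overlap, but 1 of 80 is a smaller share than the background in each comparison.

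The groups were also compared by whether their libraries overlapped. GF blood stood above GF spleen in 11 of 80 genes (background 13%) and below in 2 (10.2%), and above GF lung in 4 (14.6%) and below in 19 (28.8%). SPF spleen stood above GF spleen in 4 (5.18%) and below in 1 (6.22%), and SPF lung above GF lung in 3 (5.95%) and below in 5 (8.22%). The 5 were also above in blood (a pattern of 1.43% of all genes), as was the 1 below in spleen (1.81%). In blood, 64 of the 80 were above. GF lung stood above GF spleen in 20 (21.2%) and below in 0 (7.75%), and SPF lung above SPF spleen in 8 (18.2%) and below in 2 (7.04%). The shares that were higher were near or under the background in these comparisons, the largest being GF lung over GF spleen, with 25% of the ribosomal protein genes.

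Whether the SPF minus GF difference was larger in blood than in another tissue was tested as an interaction. The median interaction was 0.72 against spleen (64 of 80 positive, all genes -0.02) and 0.76 against lung (75 of 80 positive, all genes 0.05). None of the 80 passed in limma in either case, and 0 passed with voom weights. The background of genes past the threshold was 0.41% and 0.012% higher. An unadjusted limma p under 0.05 was found in 13 and 10 of the 80, against 1185 and 623 of all 8299 genes. Without GF blood replicate 2, which leaves the shallow GF blood library alone, 3 passed against spleen and 2 against lung.

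**Figure D5:**
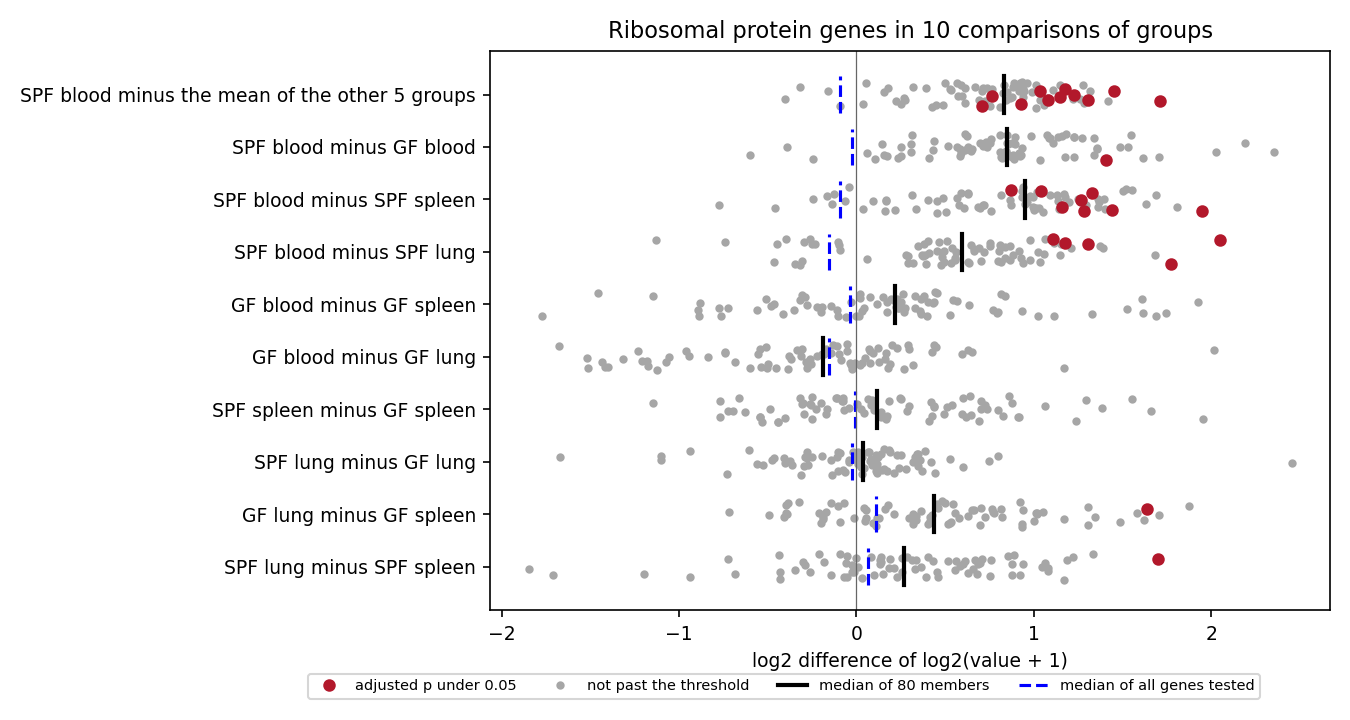
Log2 differences of the 80 ribosomal protein genes in 10 comparisons, with red points past the threshold, black bars at their median and dashed blue bars at the median of all 8299 genes tested. The medians lie at 0.83, 0.85, 0.95 and 0.60 where SPF blood is the first group and between -0.19 and 0.44 in the other 6 comparisons.

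Lists of other genes of the translation machinery were read in the same comparison of SPF blood with the other 5 groups, against the background of 6.62% higher and 11.7% lower. Of 3 other ribosome components tested, 1 was higher and 0 lower (median 1.38). Fau, with a difference of 1.38 (adjusted p = 0.191), and Gnb2l1, which encodes RACK1, with 0.03 (adjusted p = 0.966), did not pass. Of 24 elongation factors and other TOP-type genes, 2 were higher and 0 lower (median 0.27). They were Btf3, a subunit of the nascent chain complex (1.12, adjusted p = 0.0155), and Tma7 (0.98, adjusted p = 0.0212).

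Of 23 initiation factor genes, 4 were higher and 1 lower (median 0.38). Eif4ebp1, the mTORC1 target that holds back eIF4E, averaged 620 in SPF blood and 311.3 elsewhere (1.06, adjusted p = 0.00164). Eif1, Eif6, which keeps the subunits apart, and Eif5a were higher by 0.63, 0.97 and 0.56 (adjusted p = 0.00606, 0.0246 and 0.0257), and Eif3b was lower (-1.66, adjusted p = 0.00895). Of 19 genes of mTORC1 and translational control 1 passed, Tsc2, an inhibitor of the pathway, which was lower (-1.48, adjusted p = 0.0124, list median -0.07). Of 59 mitochondrial ribosomal protein genes 3 were higher (Mrpl33, Mrps15 and Mrpl43, by 0.96, 1.23 and 1.03) and 1 lower (Mrpl45, -1.81), with a median of 0.48.

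Of 25 ribosome biogenesis genes 0 were higher and 3 lower, with a median of -0.51. The 3 were Heatr1, Mybbp1a and Nmd3, which act in ribosomal RNA transcription, in the nucleolus and in export of the large subunit (-2.36, -2.10 and -1.99, adjusted p = 0.0107, 0.0143 and 0.0208). All 3 had a mean under 1 normalised count in SPF blood and 5.1 to 6.55 elsewhere. None passed after thinning to equal depth (-0.65, -0.41 and -0.22, adjusted p = 0.755, 0.871 and 0.956), nor did Mrpl45 (-0.36, adjusted p = 0.883). The 0.5 reads added to every gene stood at 0.196 to 3.81 normalised counts and was largest in the shallow libraries. Each of the 16 calls in these lists was lost without SPF blood replicate 3, 12 were lost without SPF blood replicate 4, and 10 after thinning. Besides the 4 genes with lower levels just given, these 10 were Eif6, Mrpl43, Mrps15 and Eif5a, whose differences after thinning were 1.06, 1.32, 1.13 and 0.52, and Eif1 and Tma7, at 0.48 and 0.54 (adjusted p = 0.157 to 0.758 over the 6).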

How the data were processed

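Ly6G+ neutrophils were sorted by flow cytometry, and their RNA was amplified with a low-input kit that the labels' protocols do not describe as marking strand. CASAVA, RSEM 1.3.1, limma and mm10 are named, per the submitters' processing notes. The annotation, the filter on genes and the scaling are not given in the sources used here. The deposited table holds a signal value per gene and library that has the form of an expected count plus 0.5 reads, scaled to a library size. This was read from the steps of its low values, of which 91.4% to 98.7% per library lay within 0.05 of a whole read. This share was too low in part of the libraries for a count model. One read was worth 0.392 to 7.622 units.

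A gene was tested if its value reached 10 in 2 or more libraries, which kept 8299 of the 10296 genes and dropped 1997. The value holds the added 0.5 reads, so 1 or 2 reads in a shallow library could reach 10. Rps21 and Rpl3l were tested in this way, with at most 9.41 and 9.4 normalised counts. Differences were fitted with limma 3.58.1 (R 4.3.3) on log2(value + 1) over all 16 libraries with 6 group means, a trended and robust prior and two-sided tests, with Benjamini-Hochberg adjustment in each of the 12 comparisons (threshold 0.05). Folds of low genes can be understated on this scale, and they can also be overstated. The 0.5 reads in each value were worth 0.196 units in SPF blood replicate 4 and 3.81 in SPF spleen replicate 1. A gene with few reads can thus seem lower in a deep library than in a shallow one. The test was run on simulated data first. Coordinates and lengths came from GENCODE M21 (GRCm38), in which all 83 ribosomal protein genes matched by identifier.

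The ribosomal protein genes and all gene lists were chosen with earlier results of these data known. Named genes were the 5 largest differences in each direction (only 4 were negative), stalk genes, paralogs with partners, the 3 highest levels, and the genes with the smallest p among those past the threshold. The remaining ribosomal protein genes past the threshold were added after their values were seen. Counts of groups that do not overlap were first made on the deposited values and then on levels without the added 0.5 reads, and lengths and unique stretches were first taken over all transcripts of a gene and then from its principal transcript. Both changes, and the roles given to the genes, were made after values had been seen. Alternatives were pseudocounts of 0.1 and 5, a limit of 100 or none, scaling by quantiles, median ratios or TMM, voom weights, no trended or robust prior, array weights, thinning, the shallow libraries left out, only the groups compared, a replicate block and each library left out. Intervals for single genes were not computed, and standard errors cover the spread between libraries. Some genes that the naming rule allows are not reported here.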

Additional observations from a re-analysis of the deposited data

Results flagged for a closer look

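In 6 of the 80 ribosomal protein genes tested, the SPF libraries lay above all GF libraries in blood and below all of them in another tissue. In lung this was seen in 5 genes (6.25%), against 1.43% of all genes tested, and in spleen in 1 (1.25%), against 1.81%. In blood alone SPF stood above GF in 80% of the 80 genes, against 30.5% of all genes. In lung alone it stood below in 6.25%, against 8.22% of all genes, so that share was under the background. Rps21 and Rps28 had 1 read each in GF blood replicate 3. Rps28 was at 14.9 and 7.84 in SPF blood and at 7.48 and 7.41 in GF blood. The log2 difference of SPF minus GF in lung was -0.73 for Rps27 (0.73 in blood), -1.67 for Rps21 (0.10 in blood), -0.94 for Rps18 (0.61 in blood), -0.56 for Rps19 (0.62 in blood) and -1.10 for Rps28 (0.23 in blood). In spleen it was -0.66 for Rpl6 (0.84 in blood). The interaction did not pass in any of them (limma adjusted p = 0.53, 0.687, 0.602, 0.722 and 0.8 against lung, and 0.268 for Rpl6 against spleen). The reverse, below in blood and above in the other tissue, was seen in 0 of the 80 for lung and spleen, against 0.554% and 0.952% of all genes.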

How the results depend on the processing

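No alternative turned a called difference around, and no ribosomal protein gene was lower than the other groups in SPF blood under any of the 29 run on the first comparison. The number of these genes higher in SPF blood than in the other 5 groups (11) was 51 with voom weights, 29 with array weights, 29 without the 5 libraries under 250000 reads, 7 with no trended or robust prior and 6 after thinning, and 1 to 18 with a library left out. The median (0.83) ran from 0.697 to 0.986 over the alternatives other than a library left out. Against GF blood (1) the number was 7 with voom weights, 6 with array weights, 5 with only the groups compared, 2 at a limit of 100 and 0 with no trended or robust prior, after thinning or without the shallow libraries (0 to 7 with a library left out). Without the shallow libraries GF blood, GF spleen and SPF spleen hold 1 library each, as does a blood group with a library left out, and the lone library is assumed to vary like the other groups. Against SPF spleen (8) it was 2 with quantile scaling, after thinning or without the shallow libraries, where the median was 0.489, and 0 with no trended or robust prior or with only the groups compared (0 to 10). Against SPF lung (5) it was 25 with voom weights, 20 without the shallow libraries, 18 with only the groups compared, 16 with array weights, 11 with median-ratio scaling, 8 with TMM scaling and 3 after thinning (2 to 9), and the number lower (0) was 2 with voom weights, without the shallow libraries or with only the groups compared, and 1 with array weights.

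For GF blood minus GF spleen 1 gene was higher without the shallow libraries, with 1 library a side (0 to 1 higher and 0 to 1 lower with a library left out). For GF blood minus GF lung 2 were higher with voom weights and 1 with quantile scaling or without the shallow libraries, and 6 were lower with voom weights, 4 without the shallow libraries or with only the groups compared, and 1 with a pseudocount of 5 or array weights (0 to 4). For GF lung minus GF spleen (1) the number was 6 without the shallow libraries, 5 with array weights, 3 with voom weights or a pseudocount of 5 and 0 at a limit of 100 or after thinning (0 to 8). For SPF lung minus SPF spleen (1) it was 0 at a limit of 100 or after thinning (1 to 3), and 2 were lower with array weights and 1 with quantile scaling, with no trended or robust prior or without the shallow libraries (0 to 1). For SPF minus GF in spleen it was 0 to 1 with a library left out. The interaction with spleen gave 1 at a limit of 100 or with median-ratio or TMM scaling (0 to 3), and that with lung 0 to 2. Medians of comparisons without SPF blood changed sign in places (GF blood minus GF lung, -0.327 to 0.096). The cause of these changes was not tested.

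Over all genes, voom weights called 1500 higher and 1782 lower in the first comparison, against 549 and 967. Array weights called 1058 and 1630 there. In SPF blood against SPF lung, voom weights called 1177 of all genes higher, array weights 988 and only the groups compared 945, against 550. Against GF blood the same settings called 290, 147 and 180 higher, against 44. Larger numbers of ribosomal protein genes at these settings thus came with more calls over all genes. Median-ratio scaling called 775 higher and 872 lower in SPF blood against SPF lung, where 550 and 1035 were called as deposited and the median of all genes moved from -0.155 to 0.002. Quantile scaling called 135 and 194 against SPF spleen (333 and 253 as deposited) and 28 and 66 against GF blood (44 and 66). With the number in the title as a replicate block (correlation -0.036) 11 genes passed, all 11 of them the same. Same-numbered libraries of a status did not deviate together (9 pairs, correlations -0.128 to 0.068), so the numbers were not taken as pairs.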
